A study of Homo sapiens with 6 samples.

Results

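Transcripts of glycolysis and of the response to low oxygen were followed through depletion of CNOT3 in the human lung adenocarcinoma line A549. The set held 36 genes, chosen by name: 16 glycolytic enzymes, 5 genes of glucose uptake and of the control of glycolytic flux, 12 genes induced by hypoxia-inducible factor (HIF) outside glycolysis, and 3 HIF subunits. These genes were chosen with earlier results of these data known. Their probe sets were those that the platform annotation gives to 1 of these genes alone. No intensity was analysed here for CA9, which enters the promoter counts alone, and 35 of the 36 genes were measured, among 12630 genes tested on the arrays. The cells came as 3 stable lines, each with a short hairpin RNA under tetracycline control that had been brought in with a lentivirus: a non-targeting hairpin (shNTC), or either of 2 hairpins against CNOT3 (shCNOT3-1 and shCNOT3-2). Each line was grown without doxycycline (DOX) and with 1 ug/ml of it for 72 hours, and each of these 6 states was measured on 1 array. Whether a line was a clone or a pool is not given in the sources used here, and the labels name no group grown at low oxygen.

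Glycolysis turns glucose into pyruvate, and lactate dehydrogenase turns pyruvate into lactate. HIF is a pair of proteins, an oxygen-regulated alpha subunit (HIF1A or EPAS1, also called HIF-2 alpha) and the constant partner ARNT. In oxygen, prolyl hydroxylases of the EGLN family mark the alpha subunits for destruction through VHL, so HIF activity is set mostly at the protein level. When oxygen is low, HIF binds DNA at a short core and raises transcription of glycolytic enzymes, glucose transporters and genes of blood vessel growth, mitophagy and collagen hydroxylation. CNOT3 is a subunit of CCR4-NOT, the complex that shortens poly(A) tails and so starts the decay of many mRNAs.

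CNOT3 intensity with DOX was 36.1% of that without DOX in shCNOT3-1, 20.5% in shCNOT3-2 and 93.4% in shNTC. All 6 epithelial markers listed for the check of the cells (KRT7, KRT8, KRT18, KRT19, EPCAM and CDH1) and the 4 of 5 A549-high genes that had a probe set were above the filter on dim genes. Of 4 measured markers each for leukocytes, endothelium and fibroblasts, 1 each was above it (CD14, PECAM1 and DCN). Summed over the 4 markers, the knockdown arrays read 299.6 to 387 for leukocytes, 258 to 297 for endothelium and 91.7 to 196 for fibroblasts, and the other arrays 273 to 312, 167 to 413 and 147 to 196. Among the endothelial genes CDH5 read 17.3, KDR 50.3 and VWF 78.4 at most. PECAM1 was higher with DOX in shCNOT3-1 (149 against 236) and shCNOT3-2 (107 against 206), and lower in shNTC (277 against 227). The ratio of 3' to 5' control probe sets of ACTB, a sign of RNA integrity, was 1.42 and 1.45 in the knockdown arrays and 1.33 and 1.36 in the same lines without DOX, against 1.47 with and 1.58 without DOX in shNTC. The same ratio for GAPDH was 0.966 to 1.09 with no such order. Whether RNA integrity had a part in the results below was not tested.

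The stretches of DNA upstream of some of these genes hold the HIF core, and 4 are printed so that the letters can be set beside the values that follow. ALDOC, ANKRD37 and BNIP3 are 3 of the 10 members whose knockdown arrays lay above all other arrays. LDHA, the lactate dehydrogenase subunit and a textbook HIF target, is shown beside them because its intensity was almost the same on all arrays. Each run is the 250 bases before a start of the gene from RefSeq (GRCh38.p14), 5′ to 3′ on the strand of the gene, and capitals mark ACGTG and GCGTG on either strand.
ALDOC (chr17:28576896-28577145, minus strand): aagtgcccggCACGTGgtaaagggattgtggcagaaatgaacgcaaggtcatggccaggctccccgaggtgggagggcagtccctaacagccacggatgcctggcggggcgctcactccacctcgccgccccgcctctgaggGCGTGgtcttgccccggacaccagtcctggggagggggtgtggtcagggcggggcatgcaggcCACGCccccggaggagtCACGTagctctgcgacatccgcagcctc
ANKRD37 (chr4:185396591-185396840, plus strand): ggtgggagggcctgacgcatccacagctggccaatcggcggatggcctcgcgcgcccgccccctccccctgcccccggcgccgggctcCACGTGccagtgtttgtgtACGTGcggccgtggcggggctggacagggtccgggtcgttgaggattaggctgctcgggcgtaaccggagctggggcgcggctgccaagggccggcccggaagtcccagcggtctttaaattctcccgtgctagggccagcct
BNIP3 (chr10:131981924-131982173, minus strand): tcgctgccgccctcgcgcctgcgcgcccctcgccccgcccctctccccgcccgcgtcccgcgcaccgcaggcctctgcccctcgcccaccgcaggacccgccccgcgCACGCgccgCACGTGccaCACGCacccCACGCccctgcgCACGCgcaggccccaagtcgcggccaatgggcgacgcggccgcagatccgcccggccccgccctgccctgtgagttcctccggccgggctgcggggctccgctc
LDHA (chr11:18394313-18394562, plus strand): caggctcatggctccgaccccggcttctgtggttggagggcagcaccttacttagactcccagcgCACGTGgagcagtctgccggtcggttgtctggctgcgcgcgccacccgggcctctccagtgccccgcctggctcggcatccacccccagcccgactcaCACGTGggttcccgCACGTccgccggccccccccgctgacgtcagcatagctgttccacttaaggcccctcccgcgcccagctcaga
Counting ACGTG on both strands, so that CACGTG counts once on each, ALDOC and ANKRD37 had 3 matches each, BNIP3 had 2 and the printed LDHA window had 5. LDHA has a second RefSeq window (chr11:18396101-18396350), not printed, with 0. GCGTG added 2 in ALDOC and 4 in BNIP3. PFKL and KDM3A, with the same order of arrays, had 0 matches to ACGTG in their windows. PFKM and PFKP, also with that order, had 1 match in 1 window each. Whether matches go with the change in intensity was not tested. RefSeq windows were at hand for 32 of the 36 genes, and in 18 of these (56.2%) at least 1 window held ACGTG, against 21.7% of 27305 genes of all kinds. By role these were 11 of 16 glycolytic enzymes, 2 of 4 genes of uptake and flux, 5 of 9 HIF-induced genes and 0 of 3 HIF subunits. With GCGTG counted too, 26 of the 32 (81.2%) and 47.4% of all genes had a match. A match is a run of letters in this window and not a shown binding site, and genes with several starts have more windows in which to match.

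No member passed the threshold for knockdown over all genes. The arrays read RNA of whole cultures, so fewer cells with a transcript and less of it per cell cannot be told apart. With the stable line as a block, limma called 28 of 12630 genes (0.222%) at an adjusted p under 0.05, and 0 of the 35 members. At an unadjusted p under 0.05 there were 6 members (17.1%): ALDOC, PDK1, ANKRD37, BNIP3 and BNIP3L with higher intensity and EPAS1 with lower intensity, where 14.5% of all genes met that rule. In the higher direction alone it was 5 of 35, or 14.3%, against 7.45% of all genes, and in the lower direction 1 of 35 against 7.08%. ALDOC and ANKRD37 met the unadjusted rule with either hairpin line left out, while PDK1 and BNIP3L no longer met it without shCNOT3-1, BNIP3 without shCNOT3-2, and EPAS1 without either of them. With no intensity trend in the prior BNIP3 and EPAS1 no longer met it, and PDK1 did not with the mean of probe sets or with no block for line. The second fit, of the change beyond that of shNTC, called 0 genes of the 12630 (0%) after adjustment and 1061 (8.4%) before it. Members that met its unadjusted rule were ALDOC and NDRG1, higher (4.48% of all genes), and ADM and EPAS1, lower (3.92%).

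On the brightest probe set of each gene, 10 of the 35 members had both knockdown arrays above all 4 other arrays. This pattern was found in 16% of all genes. The 10 members were 5 of the 11 HIF-induced genes (ANKRD37, BNIP3, BNIP3L, NDRG1 and KDM3A), 4 of the 16 enzymes (ALDOC, PFKL, PFKM and PFKP) and the glucose transporter SLC2A3. EPAS1 was the 1 member with both knockdown arrays below all others, a pattern of 12.8% of all genes. DOX changes had the same sign in both hairpins in 22 members, higher in 19 and lower in 3 (PFKFB3, VEGFA and EPAS1), where 33.2% and 26.9% of all genes were higher and lower in both. In the other 13 members the hairpins had opposite signs, as in 39.9% of all genes. Both hairpins lay above shNTC in 14 members, where 39% of all genes did, and below it in 12, where 31.8% did.

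**Figure D1:**
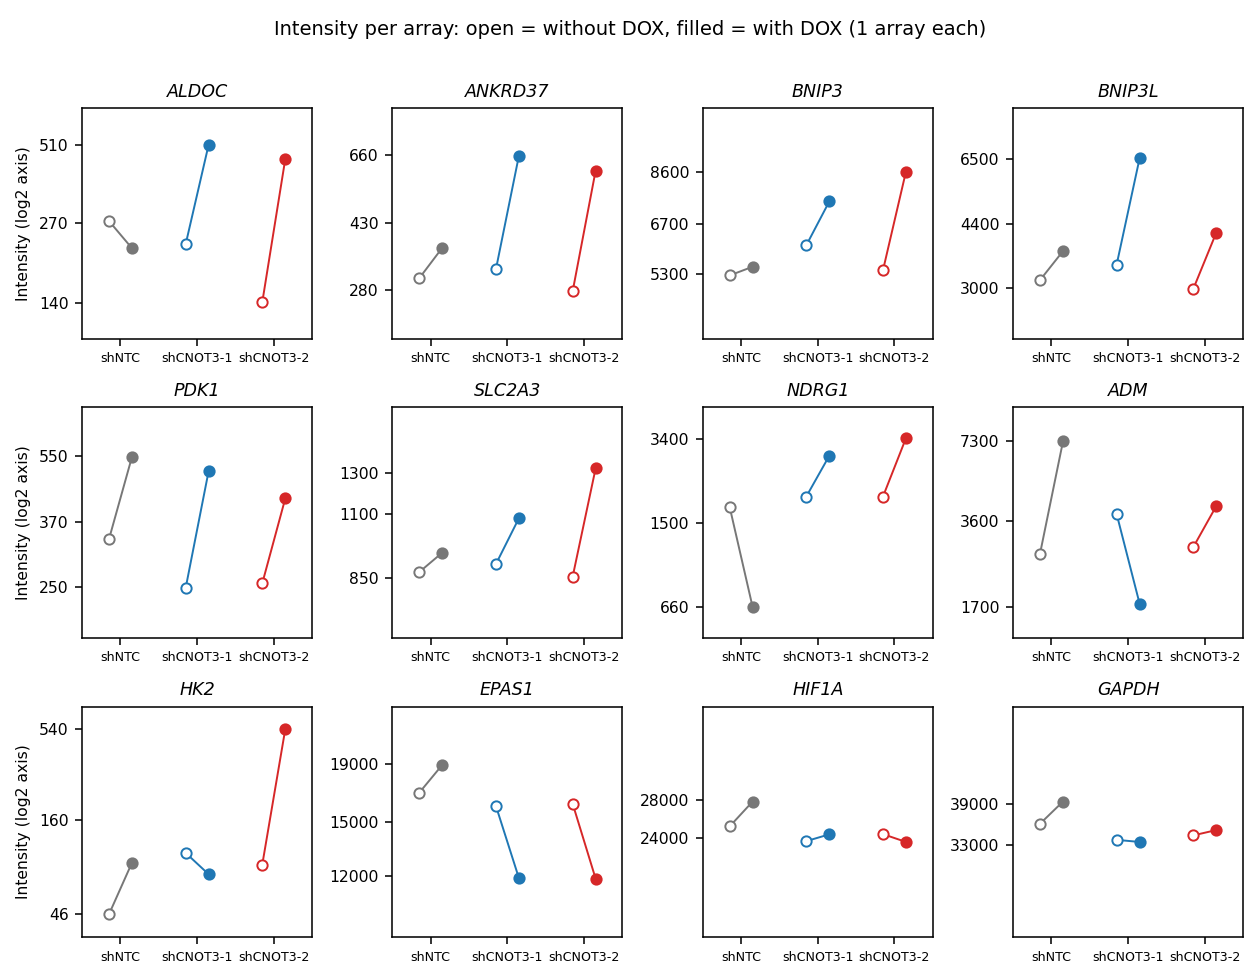
Intensity of 12 members on each array, on a log2 axis whose range differs between panels, with open points for cells without DOX and filled points for cells with DOX in the lines shNTC, shCNOT3-1 and shCNOT3-2. Each point is 1 array and a line joins the 2 arrays of a stable line. ALDOC, ANKRD37, BNIP3, BNIP3L, SLC2A3 and NDRG1 have both knockdown arrays above the rest, EPAS1 has both below, and PDK1, ADM, HK2, HIF1A and GAPDH have no such order.

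In what follows a pair of intensities is the culture without DOX against the culture with DOX. Most glycolytic enzymes had nearly the same intensity with and without DOX, and ALDOC stood out from them. GAPDH, which oxidises glyceraldehyde 3-phosphate, read 35987 against 39404 in shNTC, 33706 against 33418 in shCNOT3-1 and 34326 against 35080 in shCNOT3-2. These 6 values overlapped between states, and the largest difference was that of the control line, a log2 change of 0.13 against -0.01 and 0.03. The 3 other GAPDH probe sets that Affymetrix uses as controls gave changes of -0.07 to 0.10 in the shCNOT3 lines and 0.15 to 0.17 in shNTC. LDHA read 40751 against 40485 in shNTC, 35760 against 39571 in shCNOT3-1 and 39858 against 41534 in shCNOT3-2, again with overlap. The mean knockdown changes of the 10 bright enzymes GPI, PFKP, ALDOA, TPI1, GAPDH, PGK1, PGAM1, ENO1, PKM and LDHA lay between -0.06 and 0.28 on the log2 scale. This group runs from GPI, which turns glucose 6-phosphate into fructose 6-phosphate, to LDHA, and it does not hold the hexokinases.

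ALDOC, the aldolase best known from brain, splits fructose 1,6-bisphosphate. It read 274 against 219 in shNTC, 226 against 512 in shCNOT3-1 and 141 against 456 in shCNOT3-2. Both knockdown arrays were above all 4 others, and shNTC went the other way. The mean knockdown change was 2.70-fold, a log2 value of 1.43 ± 0.36 (SD between the hairpins, n = 2; SE of the model 0.27, adjusted p = 0.0616 in limma). Beyond shNTC the log2 change was 1.75 ± 0.48 (SE, adjusted p = 0.362). Without shCNOT3-1 the adjusted p for knockdown was 0.119 and without shCNOT3-2 it was 0.226. ALDOA, the aldolase of most tissues, gave 0.13, 0.00 and, in shNTC, 0.15.

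Hexokinases, which trap glucose in the cell as glucose 6-phosphate, differed between the hairpins. HK2 read 45.9 against 91.0 in shNTC, 104 against 78.2 in shCNOT3-1 and 88.9 against 536 in shCNOT3-2. A single array, shCNOT3-2 with DOX, was high, and the other 5 overlapped near or under an intensity of 104. Its mean knockdown change of 1.09 ± 2.11 (SD, n = 2, adjusted p = 0.486) therefore rests on shCNOT3-2, and without that line the value was -0.40. HK1 read 1195 against 1078 in shNTC, 1053 against 1809 in shCNOT3-1 and 1822 against 1892 in shCNOT3-2. Here shCNOT3-2 without DOX was already at the level of both knockdown arrays, and the log2 changes were 0.78 and 0.05, with -0.15 in shNTC.

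The phosphofructokinases catalyse the committed step of glycolysis. On the brightest probe set, all of them had both knockdown arrays above the rest by small amounts. PFKL, the liver form, read 433 against 338 in shNTC, 416 against 564 in shCNOT3-1 and 404 against 511 in shCNOT3-2, a mean log2 change of 0.39 ± 0.07 (SD, n = 2, adjusted p = 0.481). PFKP, the platelet form, read 11925 against 12863 in shNTC, 13543 against 14838 in shCNOT3-1 and 13044 against 17561 in shCNOT3-2, or 0.28 ± 0.21 (adjusted p = 0.375). For PFKM, the muscle form, the gap was small, with 3062 and 3105 in the knockdown arrays and 2882 to 2997 in the others. A second PFKL probe set gave 0.38 and -0.21 in the hairpins and did not keep this order. On it shCNOT3-2 with DOX, at 372, was below every array without DOX. ENO2, the neuronal enolase, gave 0.09 and 0.22 by hairpin, with 0.19 in shNTC.

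Among genes of uptake and flux control, PDK1 had the largest mean change, and the control line shared it. PDK1 is the kinase that shuts off pyruvate dehydrogenase and so keeps pyruvate out of mitochondria. It read 333 against 548 in shNTC, 248 against 503 in shCNOT3-1 and 255 against 427 in shCNOT3-2. On this probe set, all 3 arrays with DOX were above all 3 without it. The mean knockdown change was 0.88 ± 0.20 (SD, n = 2, adjusted p = 0.210), that of shNTC was 0.72, and the change beyond shNTC was 0.16 ± 0.43 (SE, adjusted p = 0.941). With no block for line the knockdown change was 0.50. A dimmer PDK1 probe set, just above the filter, gave -0.14 and 1.42 in the hairpins and 0.19 in shNTC. There shCNOT3-1 without DOX (112) was above shNTC with DOX (36.6), so neither the order nor the sharing was kept.

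PFKFB4, a bifunctional enzyme that sets the level of fructose 2,6-bisphosphate, showed the same sharing. It read 154 against 313 in shNTC, 174 against 201 in shCNOT3-1 and 177 against 350 in shCNOT3-2, so the control line with DOX lay between the knockdown arrays. PFKFB3, its more abundant relative in many tumours, gave -0.04 and -0.41 by hairpin, with 0.09 in shNTC. SLC2A3 (GLUT3), a glucose transporter of high affinity, read 870 against 941 in shNTC, 899 against 1083 in shCNOT3-1 and 853 against 1327 in shCNOT3-2. Its mean change was 0.45 ± 0.26 (SD, n = 2, adjusted p = 0.346), and on this probe set both knockdown arrays were above the rest. A second SLC2A3 probe set gave 0.88 and 0.79 in the hairpins but 1.30 in shNTC. The remaining one gave 0.76 and 0.12, with 0.19 in shNTC. On both of these, shCNOT3-2 with DOX (860 and 634) was below shNTC with DOX (1127 and 657), so the order was not kept. A further 2 probe sets that also match SLC2A14 were left out. SLC2A1 (GLUT1), the main basal transporter, gave -0.20 and 0.50, and 0.04 in shNTC.

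The median DOX change of the HIF-induced genes outside glycolysis was higher than that of the enzymes in each line, shNTC included. ANKRD37, a small ankyrin repeat protein, read 303 against 367 in shNTC, 321 against 660 in shCNOT3-1 and 278 against 599 in shCNOT3-2. Both knockdown arrays were well above the rest and the hairpins were alike. The mean change was 2.10-fold, or 1.07 ± 0.05 (SD, n = 2; SE of the model 0.23, adjusted p = 0.0911 in limma), and beyond shNTC it was 0.79 ± 0.41 (SE, adjusted p = 0.653). With no block for line the adjusted p was 0.0310. A second ANKRD37 probe set, under the filter on dim genes, gave 1.55 and 4.45 in the hairpins and -0.75 in shNTC, and with the mean of both probe sets the change was 2.04, or 2.27 beyond shNTC.

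BNIP3 and BNIP3L, receptors on mitochondria that bring them to autophagosomes, had the same order. BNIP3 read 5259 against 5480 in shNTC, 6067 against 7469 in shCNOT3-1 and 5388 against 8606 in shCNOT3-2. BNIP3L read 3140 against 3740 in shNTC, 3448 against 6546 in shCNOT3-1 and 2980 against 4181 in shCNOT3-2. In both genes the knockdown arrays were above the other 4, BNIP3 most in shCNOT3-2 and BNIP3L most in shCNOT3-1. Mean changes were 0.49 ± 0.27 for BNIP3 (SD, n = 2, adjusted p = 0.222) and 0.71 ± 0.31 for BNIP3L (SD, n = 2, adjusted p = 0.145), and shNTC gave 0.06 and 0.25. The second probe set of each had close hairpin means, 0.42 and 0.72, and that of BNIP3 gave 0.13 in shNTC. For BNIP3L the second probe set gave 0.88 and 0.56 in the hairpins but 0.55 in shNTC. On that probe set shCNOT3-2 thus changed about as much as the control line.

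NDRG1, a stress-induced cytoplasmic protein, differed most from the control line. It read 1759 against 662 in shNTC, 1944 against 2894 in shCNOT3-1 and 1943 against 3436 in shCNOT3-2. The 3 arrays without DOX were alike, the control array with DOX was the lowest of all, and both knockdown arrays were the highest. The change beyond shNTC was 2.11 ± 0.35 (SE, adjusted p = 0.186 in limma, unadjusted p = 0.000170). Much of it comes from the log2 change of -1.41 in shNTC, which rests on 1 pair of arrays. The mean knockdown change was 0.70 ± 0.18 (SD, n = 2, adjusted p = 0.430), and 1.12 with no block for line. The knockdown fit has no DOX term, so the fall in shNTC entered its error. The SE of NDRG1 in it was 0.37, against 0.20 without shNTC, where the adjusted p was 0.159 in limma. KDM3A, a histone H3 lysine demethylase, gave 0.30 and 0.51 in the hairpins and -0.25 in shNTC.

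ADM, the vasodilator peptide adrenomedullin, went opposite ways in the hairpins. It read 2704 against 7287 in shNTC, 3844 against 1742 in shCNOT3-1 and 2872 against 4126 in shCNOT3-2. The control line with DOX was the highest and shCNOT3-1 with DOX the lowest. Beyond shNTC the log2 value was -1.74 ± 0.56 (SE, adjusted p = 0.446, unadjusted p = 0.0122). VEGFA, the main growth factor of blood vessels, read 1337 against 791 in shNTC, 1625 against 1246 in shCNOT3-1 and 1278 against 1154 in shCNOT3-2. On this probe set each line was lower with DOX and the control line most. On a second VEGFA probe set shCNOT3-1 was higher with DOX (425 against 464). Another gave -0.18 and -0.39, with -0.43 in shNTC, and kept the pattern. The collagen prolyl hydroxylases P4HA1 and P4HA2 gave means of 0.39 and 0.17, with 0.43 and 0.24 in shNTC. EGLN3, an oxygen sensor that HIF itself induces, gave 0.58 and -0.50 and in shNTC 0.74. A second EGLN3 probe set gave -0.25 and 0.02, and 1.04 in shNTC. EGLN1, the main sensor of most cells, gave 0.07, -0.50 and, in shNTC, -0.25.

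Of the HIF subunits, EPAS1 was lower in both knockdown arrays and the others were not. EPAS1 read 16882 against 18912 in shNTC, 15987 against 11909 in shCNOT3-1 and 16146 against 11889 in shCNOT3-2. The knockdown arrays were nearly equal and below all others. The mean knockdown change left 0.741 of the intensity, or -0.43 ± 0.01 (SD, n = 2; SE of the model 0.13, adjusted p = 0.180 in limma), and beyond shNTC the change was -0.60 ± 0.21 (SE, adjusted p = 0.499). With no block for line the adjusted p was 0.0486. A second, dimmer probe set gave -1.18 and -0.21, and 0.28 in shNTC. With the mean of all 3 probe sets, 1 of them under the filter, the change was -1.33, or -2.26 beyond shNTC. HIF1A read 25177 against 27870 in shNTC, 23715 against 24381 in shCNOT3-1 and 24403 against 23635 in shCNOT3-2, which overlap, and its mean change was -0.00 ± 0.06 (SD, n = 2, adjusted p = 0.996). ARNT read 360 against 504 in shNTC, 371 against 267 in shCNOT3-1 and 285 against 392 in shCNOT3-2, with opposite changes of -0.47 and 0.46.

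**Figure D2:**
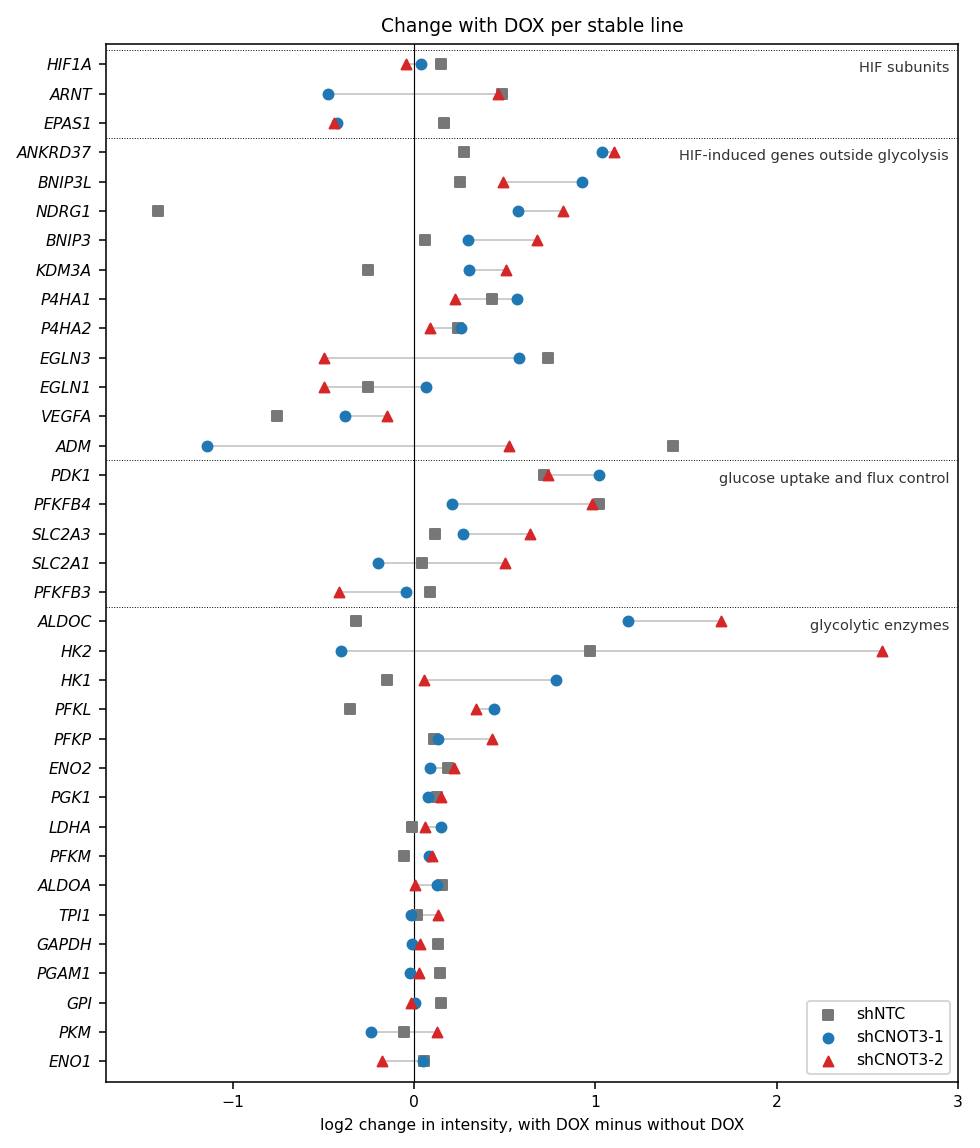
Change with DOX (log2 intensity with DOX minus without it, horizontal axis) of the 35 measured members in shNTC (grey squares), shCNOT3-1 (blue circles) and shCNOT3-2 (red triangles), grouped by role, with a grey line between the hairpins. Each point is 1 pair of arrays, so it has no error bar. Most enzymes lie close to 0 in all lines, while ALDOC and ANKRD37 are above 1 in both hairpins and NDRG1 and ADM are farthest from 0 in shNTC.

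By role, the median DOX change of the 16 enzymes was 0.08 in shCNOT3-1, 0.11 in shCNOT3-2 and 0.08 in shNTC. For the 11 HIF-induced genes outside glycolysis it was 0.30, 0.49 and 0.24, and for the 5 genes of uptake and flux 0.21, 0.64 and 0.11. Over all genes tested the medians were 0.05, 0.02 and -0.01. The control line thus also had higher medians than all genes. Members were picked by name with earlier results of these data known, so these medians carry no test. Differences of at least 2-fold in a line were seen in 4 members in shCNOT3-1 (6.86% of all genes), 3 in shCNOT3-2 (6.46%) and 3 in shNTC (4.01%). At least 1.5-fold higher in both hairpins were ALDOC, PDK1 and ANKRD37, 3 of 35 members where 3.25% of all genes were.

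The enzymes were also among the brightest genes, where changes are small in general. By mean log2 intensity 9 of the 16 enzymes were in the top 5% of genes tested, and ALDOA, GAPDH, PGK1, ENO1 and LDHA in the top 1%. The median size of the knockdown term was 0.10 for the 16 enzymes, 0.13 for all genes in the top 5% and 0.35 for the dimmest 25%. These sets are not matched, as the other enzymes lay between percentiles 12.1 (HK2) and 87.3 (PKM) of brightness. All genes in the brightness ranges up to the 90th percentile had medians of 0.21 to 0.35. GAPDH read 64.1% to 69.5% of the highest value on its array. Whether such bright probe sets still read in proportion to the amount of RNA was not tested. None of the 11 HIF-induced genes was in the top 5%.

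**Figure D3:**
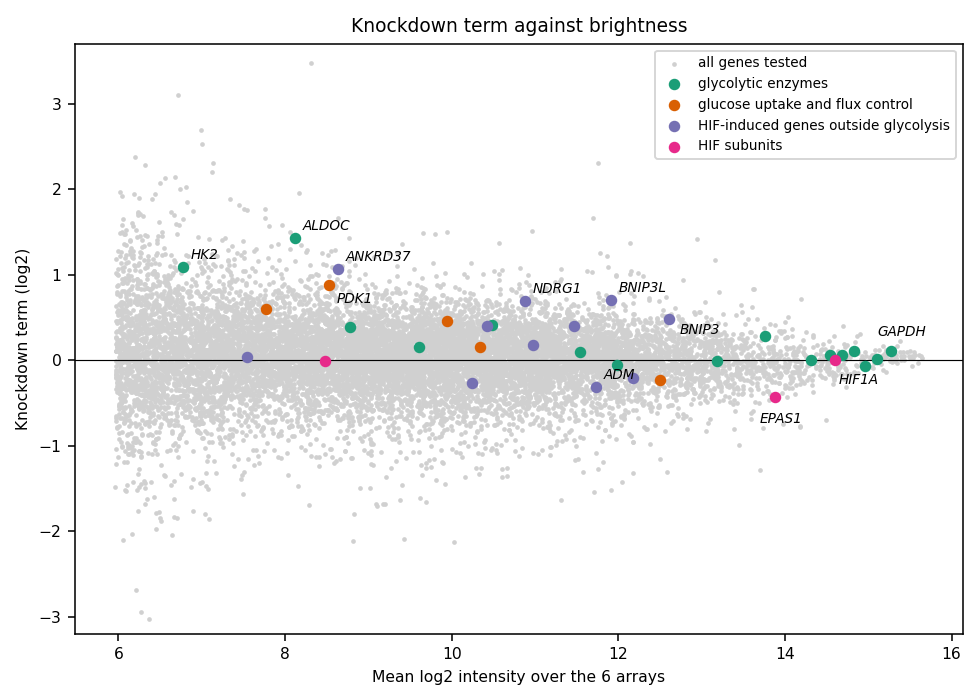
Knockdown term (log2, vertical axis) against mean log2 intensity over the 6 arrays (horizontal axis) for the 12630 genes tested (grey) and the 35 members, coloured by role. The grey cloud narrows to the right, where most enzymes sit close to 0, and ALDOC, HK2 and ANKRD37, the members over 1, lie in its left part.

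The lines also differed without DOX. The range over the 3 arrays without DOX had a median of 0.18 on the log2 scale for the members and 0.30 for all genes. It was widest for HK2 (1.16), ALDOC (0.96) and HK1 (0.79). For ALDOC the array of shCNOT3-2 without DOX, at 141, was the lowest of all 6, so that the fold in that line starts from a low value. The knockdown term was larger in size than this range in 16 of 35 members, 45.7%, against 40.3% of all genes, and 7 of the 11 HIF-induced genes and 4 of the 16 enzymes were among them.

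Probe sets of the same gene did not always move alike. Of the 35 members 18 had several probe sets at or above the filter, and in 6 of these the mean change of the hairpins had opposite signs with over 0.5 on the log2 scale between probe sets. From bright to dim, the ARNT probe sets gave -0.01, -0.76, 0.79, -0.14 and 0.20. Those of P4HA2 gave 0.17 and -0.95, and those of HK2 gave 1.09 and -0.02. For PGK1, which makes ATP from 1,3-bisphosphoglycerate, they were 0.11, 0.02, -0.07, -0.10, -0.03 and -0.57, and for TPI1, the triose phosphate isomerase, 0.06, 0.04 and -0.45. In these 2 genes the lowest value came from the dimmest probe set. The low P4HA2 probe set read 270 against 313 in shNTC, 261 against 157 in shCNOT3-1 and 271 against 119 in shCNOT3-2, so both knockdown arrays were below the rest, while the brighter probe set gave 0.26 and 0.09. For EGLN1 the brightest probe set was the 1 below 0, at -0.21, and the next ones gave 0.50 and 0.35. ALDOC, NDRG1, ADM and HIF1A had 1 probe set each and no such check.

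**Figure D4:**
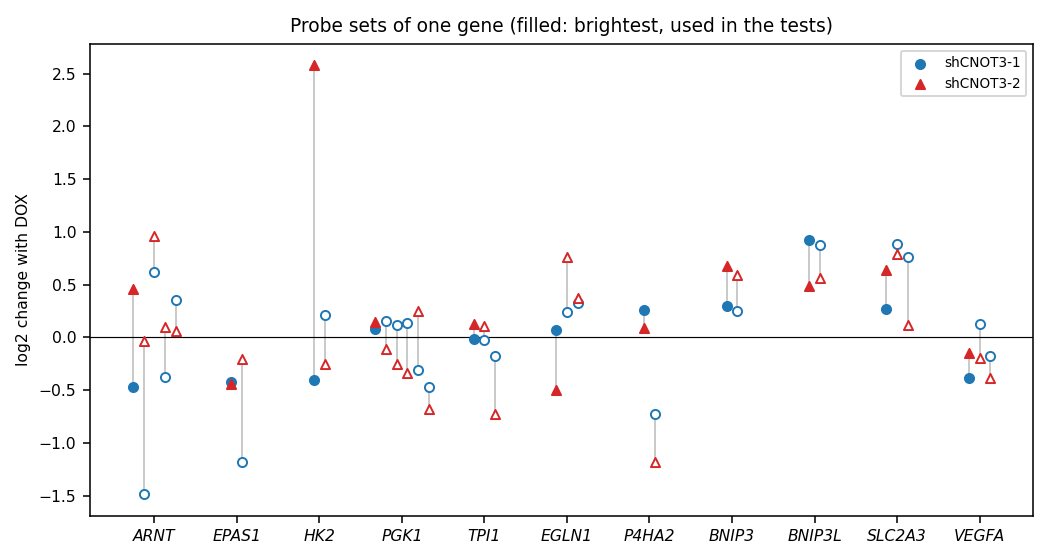
Change with DOX (log2, vertical axis) in shCNOT3-1 (blue circles) and shCNOT3-2 (red triangles) for each probe set at or above the filter of 11 members, ordered from bright to dim within a gene, with the probe set used in the tests filled. A grey line joins the hairpins. BNIP3 and BNIP3L have all probe sets above 0, while ARNT, HK2, EGLN1 and P4HA2 have probe sets on both sides.

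Neighbouring parts of the pathway were read from lists that do not hold the members. None of their genes passed in limma over all genes, for knockdown or beyond shNTC. Of 10 other glycolytic isoenzymes and lactate genes, TIGAR was higher and ENO3 lower at an unadjusted p under 0.05, which is 10% in each direction against 7.45% higher and 7.08% lower over all genes. TIGAR, a p53 target whose product lowers fructose 2,6-bisphosphate, read 3073 against 3750 in shNTC, 3155 against 5953 in shCNOT3-1 and 3040 against 6359 in shCNOT3-2. Both knockdown arrays were far above the rest, and the mean change was 0.99 ± 0.11 (SD, n = 2; SE of the model 0.17, adjusted p = 0.0543). ENO3, the muscle enolase, gave -0.64 and -0.65, and 0.03 in shNTC (adjusted p = 0.234).

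Of 23 other HIF-induced genes 4 were higher (DDIT4, MXI1, CITED2 and PLIN2) and 2 lower (IGFBP3 and ZNF395) at an unadjusted p under 0.05. These are 17.4% and 8.7% of the list, against 7.45% and 7.08% of all genes, so the lower count is near the background. PLIN2, which coats lipid droplets, read 4223 against 2568 in shNTC, 4473 against 10828 in shCNOT3-1 and 4319 against 6978 in shCNOT3-2. Its control array with DOX was the lowest, as for NDRG1, and its mean change was 0.98 ± 0.41 (SD, n = 2, adjusted p = 0.126). CITED2, a competitor of HIF for its coactivator, gave 0.78 in each hairpin and -0.33 in shNTC. The median of these 23 genes was 0.15 in shCNOT3-1, 0.21 in shCNOT3-2 and -0.04 in shNTC.

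No gene of the other lists met the unadjusted rule for knockdown, which 14.5% of all genes met: 0 of 12 for pyruvate entry into mitochondria, 0 of 14 for the control of HIF stability, 0 of 15 for the pentose phosphate pathway and glycogen and 0 of 4 for glucose sensing. The largest terms were -0.44 for PDK2 and 0.32 for DLD in the first list, -0.29 for FBXW7 and 0.20 for CREBBP in the second, and 0.38 for GFPT1 and -0.28 for RPIA in the third. VHL, which targets HIF alpha subunits, gave -0.27 and 0.16 and in shNTC -0.36. TXNIP, a brake on glucose uptake that follows the sugar level of the cell, read 118 against 110 in shNTC, 65.6 against 190 in shCNOT3-1 and 104 against 94.2 in shCNOT3-2. Only its shCNOT3-1 array with DOX was high. MLXIPL, a glucose-sensing transcription factor, read 105 against 66.6 in shNTC, 35.7 against 113 in shCNOT3-1 and 56.4 against 43.7 in shCNOT3-2. Its log2 changes were 1.63 and -0.36 by hairpin, with -0.65 in shNTC. It was among the dimmest genes tested (percentile 0.855), and its arrays without DOX ranged over 1.53 on the log2 scale.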

How the data were processed

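RNA of 6 cultures was measured on 1 Affymetrix array each. Per the submitters' processing notes the authors used MAS5, and the deposited values are its linear intensities per probe set, scaled to a trimmed mean of 500.1 on every array; no source at hand gives the settings. Here log2(intensity + 1) was taken, and a gene was read from its brightest probe set listed to 1 gene. Genes below a mean log2 value of 5.96 (intensity 61.4), where the median probe set lies, were left out. Arrays were fitted with limma 3.58.1 in R 4.3.3 (intensity trend in the prior), once with line and knockdown and once with line, DOX and knockdown, and p-values were adjusted by Benjamini-Hochberg over 12630 genes at a threshold of 0.05. A knockdown value rests on 2 hairpins with 1 array per state, so a p-value reflects only how these arrays scatter, and their number limits the precision. SD is that between the hairpins, and SE is that of the model.

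The fits were tested on simulated data for 12630 genes with 200 changed. The knockdown fit recovered 31.6% of 2-fold and 83.6% of 4-fold changes, with 6.01% of its calls false, and the fit beyond shNTC 2% and 38.2%, with 11.7% false. The knockdown fit has no DOX term, so a change that shNTC shares, as for PDK1, counts as knockdown in it. A DOX change of shNTC in either direction also goes into its residual, as for NDRG1, and so into its p-value. Whether the 6.01% holds for genes of this kind was not tested. Alternatives were quantile normalization, centring on the median, an added constant of 16, no filter or a stricter one at the 75th percentile, the mean of probe sets, no intensity trend, no block for line, and each line left out. By rule, values on all arrays were given for the 3 members with the largest knockdown term in each role, the 3 largest changes in shNTC, the HIF subunits and GAPDH. Members whose probe sets disagree were named with each probe set, and up to 2 genes of each pathway list were named. Other genes were described after their values were seen. The members and the lists were chosen with earlier results of these data known.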

Additional observations from a re-analysis of the deposited data

Results flagged for a closer look

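Opposite signs in the hairpins were found in 13 of 35 members (37.1%), against 39.9% of all genes. ADM was the 1 member with a change of at least 0.5 on the log2 scale in each direction. Its log2 change with DOX was -1.14 in shCNOT3-1 and 0.52 in shCNOT3-2, so shCNOT3-2 was 1.66 above shCNOT3-1. The hairpins were farther apart in HK2 (-0.40 and 2.58), and EGLN3 (0.58 and -0.50, or -0.496 unrounded) was just under that size. A second EGLN3 probe set gave -0.25 and 0.02 and did not keep these signs. Each change is 1 pair of arrays, and the difference was not tested. Opposite changes of at least 0.5 in both hairpins were seen in 347 of 12630 genes, or 2.75%, so 1 of 35 members is near that share.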

How the results depend on the processing

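No member passed an adjusted p of 0.05 for knockdown under the alternatives run, except with no block for line, where 2 did (ANKRD37 at 0.99, adjusted p = 0.0310, and EPAS1 at -0.51, adjusted p = 0.0486, in limma). The stricter filter left 29 members, without ALDOC and PDK1, and the mean of probe sets 34. The lowest adjusted p of any member ranged from 0.0310 to 0.260. Members past an unadjusted p under 0.05 numbered 11 with no block for line, 4 with no intensity trend and 5 to 7 with a line left out, against 6. Beyond shNTC they numbered 7 with the mean of probe sets and 2 with no intensity trend; that fit could not be made with a hairpin line left out. The median of the enzymes was 0.0690 with the mean of probe sets. Role medians with a line left out ran from 0.0797 to 0.113 for enzymes, 0.208 to 0.638 for uptake and flux, 0.305 to 0.488 for HIF-induced genes and -0.425 to -0.0461 for HIF subunits. Log2 knockdown terms turned sign for ARNT with the mean of probe sets (0.016), for HIF1A with quantile normalization (0.039) and for GAPDH with no block for line (-0.064). With a line left out they ran from -0.40 to 2.58 for HK2, from -0.47 to 0.46 for ARNT, from -0.046 to 0.040 for HIF1A, from -0.012 to 0.031 for GAPDH and from -1.14 to 0.52 for ADM. HK2 was 0.59 with the mean of probe sets and ADM -0.52 with no block for line; the cause was not tested. With 1 array per line and DOX state, dim probe sets limit what can be seen.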
